A study of Mus musculus with 12 samples.

Results

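The genes described here are the core genes of the circadian clock, namely the transcriptional activators Bmal1, Clock and Npas2, the repressors Per1, Per2, Per3, Cry1 and Cry2, and the nuclear receptors Nr1d1 and Nr1d2. They were chosen by name, as the genes that make up the central feedback loops, and are 10 of the 55414 genes in the deposited table. All 10 had enough reads to be tested, together with 13857 genes in all. The livers of 12 female C57BL/6J mice, 8 to 12 weeks old and wild type for all that the records say, were sequenced in 4 groups of 3. NaCl/PBS mice received 0.9% NaCl and 6 h later PBS, NaCl/DEX mice received NaCl and then 10 mg/kg dexamethasone (DEX, a synthetic glucocorticoid), FeSO4/PBS mice received 300 mg/kg iron sulfate (FeSO4) and then PBS, and FeSO4/DEX mice received FeSO4 and then DEX. All injections were intraperitoneal, and every liver was taken 2 h after the second and 8 h after the first injection. The dose of FeSO4 is lethal in this model. The mice lived under a light phase longer than the dark phase, and the clock time of sampling is not given in the sources used here. Since each group was sampled at 1 time point, a change in the level of a clock gene and a shift of its daily phase cannot be told apart.

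In the clock of liver cells, BMAL1 pairs with CLOCK, or with its relative NPAS2, and the pair binds E-boxes in the promoters of the Per, Cry and Nr1d genes. PER and CRY proteins return to the nucleus and repress the pair. NR1D1 and NR1D2 (REV-ERB alpha and beta) repress Bmal1 and Npas2, and ROR receptors activate them through the same sites. A further branch runs through D-boxes, which are bound by the activators DBP, TEF and HLF and by the repressor NFIL3. Transcripts of Bmal1 and Npas2 therefore normally peak far from those of Nr1d1, Dbp and Per3 in the daily cycle. Glucocorticoids are known to reset the liver clock, and Per1 is a known target of the glucocorticoid receptor.

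The promoters were read from GRCm39, the build the authors mapped to, from 1000 bases before to 50 bases after the start of the GENCODE vM39 canonical transcript. They were searched on both strands for exact matches to the E-box CACGTG, the D-box TTATGTAA or TTACGTAA, the ROR element TAGGTCA or TGGGTCA, the CRE TGACGTCA and the core ACANNNTGT of a glucocorticoid response element. The E-box was in the promoters of Per1, Cry1 and Nr1d1, and in 19.5% of the promoters of all 13817 tested genes that had one. The D-box was in those of Per2 and Per3 and in 4.0% of all, with 3 matches in Per3. The glucocorticoid core was in that of Cry2 and in 23.7% of all. None of the 10 windows held these letters of the ROR element (21.6% of all) or of the CRE (3.6% of all), which says only that the letters are not in these windows. No match overlapped another. The stretches below were picked with the results known, and leave out other matches such as the E-box of Cry1. Nr1d2, whose smaller fall after FeSO4 is given below, had no match. Shown are the D-boxes close to the starts of Per2 and Per3, an E-box each of Per1 and Nr1d1, and the core in Cry2. Each runs 5′ to 3′ on the strand of the gene, the position counts back from the base before the start as -1, and capitals mark the match. A match is a description of the sequence and not evidence of binding. Those of Per3, Nr1d1 and Cry2 also touch exons of long noncoding RNA genes in the annotation.
Per1, E-box at -22, chr11:68989216-68989267, plus strand: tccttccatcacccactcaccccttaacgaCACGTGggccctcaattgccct
Nr1d1, E-box at -367, chr11:98666491-98666556, minus strand: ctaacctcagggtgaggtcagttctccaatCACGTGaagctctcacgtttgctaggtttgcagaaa
Per2, D-box at -125, chr1:91387134-91387201, minus strand: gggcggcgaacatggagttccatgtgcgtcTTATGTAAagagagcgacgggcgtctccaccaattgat
Per3, D-box at -187, chr4:151129290-151129357, minus strand: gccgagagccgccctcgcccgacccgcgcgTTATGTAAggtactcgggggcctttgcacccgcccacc
Per3, D-box at -140, chr4:151129243-151129310, minus strand: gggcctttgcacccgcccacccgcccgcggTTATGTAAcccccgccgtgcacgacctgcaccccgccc
Cry2, GRE core at -347, chr2:92264783-92264851, minus strand: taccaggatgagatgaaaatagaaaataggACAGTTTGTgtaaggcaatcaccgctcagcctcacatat

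The counts held between 16335651 and 23827340 reads per library. The 7 measured markers of hepatocytes, the main cells of the liver, summed to between 2110000 and 3110000 normalized counts. Of the 8 markers of pancreatic acinar cells, Prss2, Cpa1, Cpb1, Ctrb1 and Pnlip were at 0 in every library. The others had reads in at least 1 library, and the 8 summed to between 105 and 265 normalized counts. Of 10 glucocorticoid target genes used to check the labels, 8 were higher after DEX in NaCl mice, as were 6.50% of all tested genes. In FeSO4/PBS against NaCl/PBS mice, 9 of the 10 were already higher without DEX and 1 was lower. Of all tested genes, 27.2% were higher and 27.3% lower there. The paper reports that iron also raised serum corticosterone, and the part of this hormone in the values given here was not tested. After DEX in FeSO4 mice 0 of the 10 were called. Since 0 of all 13857 tested genes were called there, this count is not particular to these targets. Fkbp5 and Tsc22d3, which encode a chaperone and an anti-inflammatory protein induced by glucocorticoids, had log2 fold changes (LFCs) of 2.24 and 1.68 in NaCl mice against -0.19 and 0.24 in FeSO4 mice. The widest change of the 10 after DEX in FeSO4 mice, chosen after its values were seen, was that of the stress gene Ddit4, with an LFC of 1.38 (SE 0.21, edgeR FDR 0.18) and no overlap of the groups, against 4.93 in NaCl mice. A pair of mice stood apart from their groups. NaCl/PBS mouse 2 had 3654 normalized counts of Fkbp5 where the other mice of its group had 1341 and 1481, and FeSO4/PBS mouse 1 had the lowest Bmal1, Npas2, Nr1d1 and Clock of its group. Results that change without them are given as such. A gene was called when the FDR of edgeR's quasi-likelihood test over all tested genes was 0.05 or less, and a normalized count is a read count scaled by edgeR's TMM factors to the mean library.

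Measured per kilobase of the canonical transcript, so that genes can be ranked, the clock of the NaCl/PBS livers was led by the NR1D repressors. Nr1d1 stood at 589 ± 174 normalized counts per kilobase (SD, n = 3) and Nr1d2 at 403 ± 48.4 (SD, n = 3). Per3, at 229 ± 42.8 (SD, n = 3), and Cry2, at 192 ± 15.5 (SD, n = 3), followed, and these neighbours did not differ beyond their spread. Per1 and Per2 did not differ beyond their spread at 118 ± 23.3 and 113 ± 20 (SD, n = 3). Clock had 56.6 ± 11.5, Cry1 32.8 ± 11.7, Bmal1 8.15 ± 5.32 and Npas2 0.378 ± 0.16 (SD, n = 3). The activators other than Clock were thus the lowest of the 10 genes in these livers.

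The order was different in the FeSO4/PBS livers. Nr1d1 was still the highest per kilobase, at 743 ± 275 normalized counts (SD, n = 3), and Cry2 at 305 ± 95.3, Nr1d2 at 301 ± 72.4 and Per1 at 269 ± 48.6 (SD, n = 3) were within their spread of each other. Bmal1 had 86.5 ± 34.8 and Clock 64.8 ± 14.2 (SD, n = 3), which overlapped. Per3 was now the lowest of the 10, at 2.25 ± 2.26 (SD, n = 3), below Npas2 at 13.5 ± 6.59 and Per2 at 24.2 ± 5.03 (SD, n = 3).

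**Figure D1:**
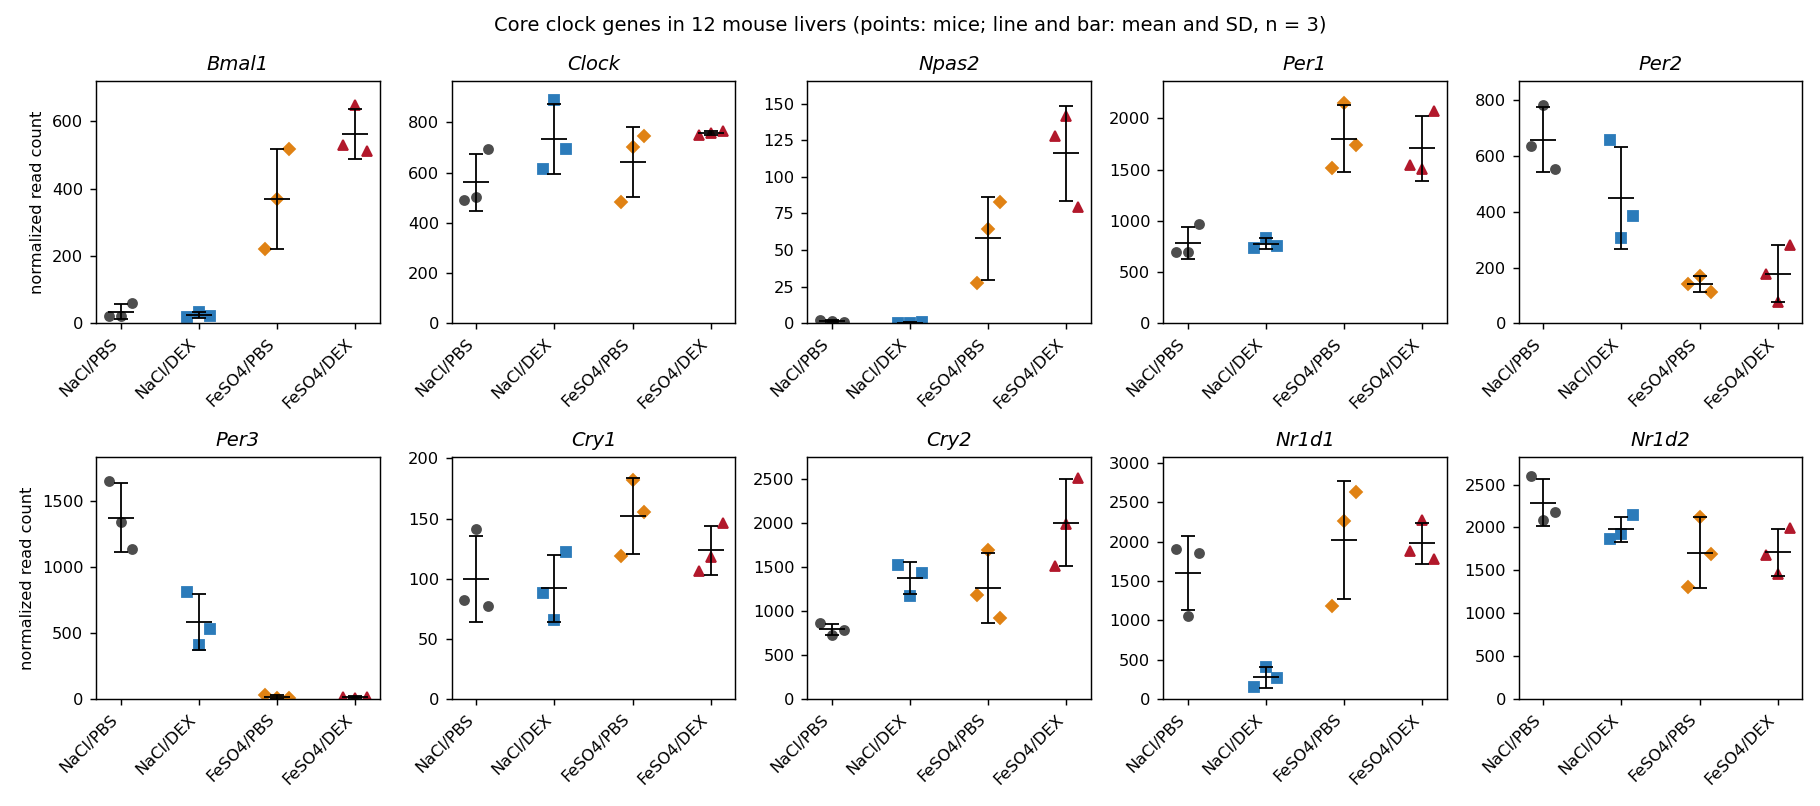
Normalized read counts of the 10 core clock genes (vertical axes, linear from 0) in the 4 treatment groups, with a point for each mouse and the mean and SD of 3 mice in black. Bmal1, Npas2 and Per1 lie above, and Per2 and Per3 below, the NaCl mice in all 6 FeSO4 mice, and Nr1d1 is low in the 3 NaCl/DEX mice, from 148.1 to 411.8.

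FeSO4 moved the clock genes in both directions. Compared with NaCl/PBS mice, FeSO4/PBS mice had more transcript of the activators Bmal1 and Npas2 and the repressors Per1 and Cry2, and less of Per2, Per3 and Nr1d2. Cry1, Clock and Nr1d1 were not called. Of the 10 genes, 4 were called higher and 3 lower, where 27.2% of all tested genes were called higher and 27.3% lower. The 4 include Npas2, which passed the low-count filter only through the FeSO4 mice. In 6 of the 10 the groups did not overlap, as in 60.0% of all genes. So the number of clock genes called was near that of the liver transcriptome as a whole, which changed broadly, and a few of the sizes were far out in its range. By LFC, Per3 ranked 6 and Per2 464 from the lowest of 13857 genes, and Bmal1 ranked 255 from the highest. The median LFC of the 10 genes was 0.47 and that of all tested genes -0.02.

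Bmal1 (ENSMUSG00000055116, chromosome 7 from 112806152 to 112914735) encodes the obligate partner in the activating pair. It had 20.86, 22.44 and 60.94 normalized counts in the NaCl/PBS group against 219.7, 370.3 and 516.5 in the FeSO4/PBS group. The lowest FeSO4/PBS mouse was well above the highest NaCl/PBS mouse. The means were 34.75 ± 22.7 and 368.8 ± 148 (SD, n = 3). The fitted LFC of 3.41 (SE 0.38, edgeR FDR 5.7e-06) is a 10.6-fold rise. With each mouse left out in turn the LFC ran from 3.09 to 4.08.

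Npas2 (ENSMUSG00000026077, chromosome 1 from 39232705 to 39402323), whose protein can take the place of CLOCK, was almost absent without FeSO4. The NaCl/PBS mice had 3, 2 and 1 reads and the FeSO4/PBS mice 27, 63 and 65. Scaled for library size, the 155 reads in FeSO4/PBS mice against 6 in NaCl/PBS mice give a ratio of 34.1 (95% counting interval 15.3 to 94.3, which covers counting error only). The fitted LFC was 5.03 (SE 0.57, edgeR FDR 6.9e-06), and its size depends on the prior count since the NaCl reads are so few. Npas2 passed the filter on low counts only through the FeSO4 mice, so its entry among the tested genes already required a difference.

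Clock (ENSMUSG00000029238, chromosome 5 from 76342860 to 76452846), the partner of BMAL1, did not follow them. It had 490.5, 501.2 and 692.4 normalized counts in NaCl/PBS mice and 481.8, 701.9 and 743.5 in FeSO4/PBS mice, which overlapped. The LFC was 0.19 (SE 0.18, edgeR FDR 0.38), with a 95% interval from -0.19 to 0.58 that leaves out a change of the size seen in Bmal1, and it was -0.12 with library size as the only scaling. Its exons share 2047 bases with Tmem165 on the opposite strand, a gene with 72 to 239 reads per library, and which strand setting the authors counted with is not given in the sources used here.

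The 3 Per genes, which encode the PERIOD repressors, went apart. Per3 (ENSMUSG00000028957, chromosome 4 from 151081373 to 151129140) had 1651, 1340 and 1139 normalized counts in NaCl/PBS mice and 29.23, 5.086 and 6.377 in FeSO4/PBS mice. The transcript was nearly lost in every FeSO4/PBS mouse, at 29, 5 and 5 reads, with FeSO4/PBS mouse 1 the highest of them. Its LFC was -6.60 (SE 0.42, edgeR FDR 5.9e-08), or 97.3-fold lower, and lay between -7.89 and -6.18 with each mouse left out in turn.

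Per2 (ENSMUSG00000055866, chromosome 1 from 91343700 to 91387069) had 635.1, 784.5 and 554.4 normalized counts in NaCl/PBS mice and 141.1, 170.9 and 112.2 in FeSO4/PBS mice. The groups were far apart, with an LFC of -2.21 (SE 0.36, edgeR FDR 0.00017), a 4.63-fold fall. Per1 (ENSMUSG00000020893, chromosome 11 from 68986035 to 69002300) rose instead. It had 695.5, 697.6 and 966.6 normalized counts in NaCl/PBS mice and 1511, 2153 and 1741 in FeSO4/PBS mice. There was no overlap, and the LFC was 1.20 (SE 0.17, edgeR FDR 4.9e-05). Per1 is also known as an immediate-early gene that responds to cAMP and stress signals. Relative to Per1, Per2 went from near parity to a small part of the Per1 level, at 24.2 against 269 normalized counts per kilobase.

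Of the cryptochromes, which encode the partners of the PER proteins, Cry2 (ENSMUSG00000068742, chromosome 2 from 92233894 to 92264474) rose. Its normalized counts were 859.5, 731.2 and 788 in NaCl/PBS mice and 1175, 1693 and 918.2 in FeSO4/PBS mice. The lowest FeSO4/PBS mouse lay just above the highest NaCl/PBS mouse, and the LFC was 0.67 (SE 0.21, edgeR FDR 0.015). This call did not hold without FeSO4/PBS mouse 2 (LFC 0.40, edgeR FDR 0.094) or with library size as the only scaling (LFC 0.35, edgeR FDR 0.15). That scaling lowered the median LFC of all genes from -0.02 to -0.34 here, from -0.02 to -0.18 for DEX in NaCl mice and from 0.01 to -0.18 for FeSO4 in DEX mice. Cry1 (ENSMUSG00000020038, chromosome 10 from 84967560 to 85021252) had 82, 141.2 and 77.03 normalized counts in NaCl/PBS mice and 118.9, 182.1 and 155.6 in FeSO4/PBS mice, which overlapped through NaCl/PBS mouse 2. Its LFC of 0.61 (SE 0.27, edgeR FDR 0.071) missed the threshold, and was 0.94 (edgeR FDR 0.011) without that mouse and 0.77 (edgeR FDR 0.036) without FeSO4/PBS mouse 1.

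Nr1d1 (ENSMUSG00000020889, chromosome 11 from 98658752 to 98666188), the main repressor of Bmal1, was not lower as a transcript in the mice with high Bmal1. NR1D1 protein was not measured. The NaCl/PBS mice had 1900, 1058 and 1854 normalized counts and the FeSO4/PBS mice 1183, 2260 and 2625. The groups overlapped, and the LFC was 0.33 (SE 0.33, edgeR FDR 0.41) with a 95% interval from -0.37 to 1.03. Nr1d1 shares 1694 exon bases with Thra on the opposite strand, which had 117 to 217 reads per library. Nr1d2 (ENSMUSG00000021775, chromosome 14 from 4230545 to 4266624), its paralog, had 2599, 2081 and 2181 normalized counts against 1305, 2125 and 1690, an overlap through FeSO4/PBS mouse 2. Its LFC of -0.42 (SE 0.17, edgeR FDR 0.044) was at the edge of the threshold, and the call was lost under DESeq2 (adjusted p = 0.058) and in 4 of the 6 fits that left out 1 mouse, down to -0.26 without FeSO4/PBS mouse 1.

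**Figure D2:**
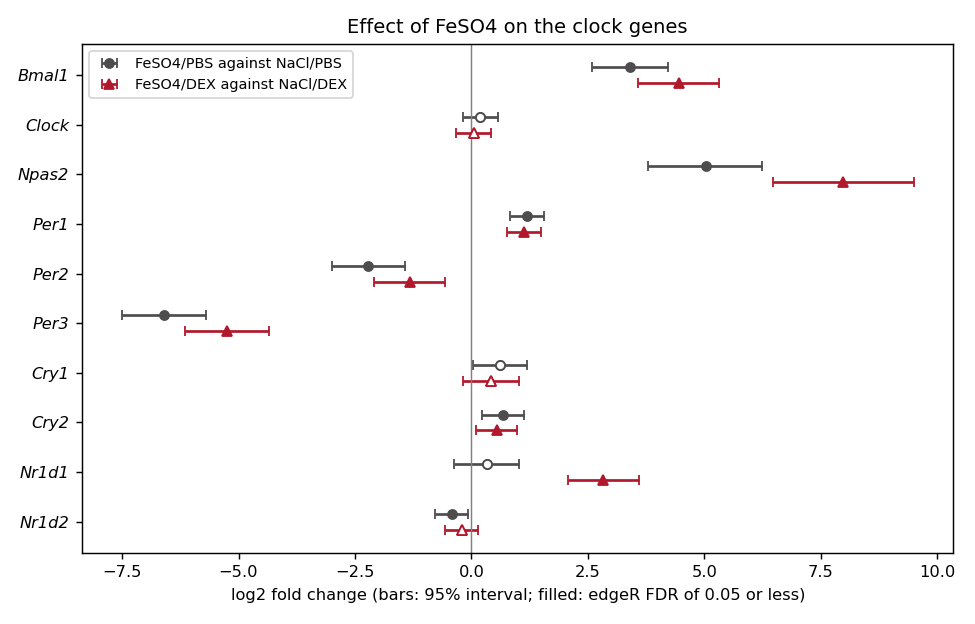
LFC of each clock gene between mice with and without FeSO4 (horizontal axis, log2 scale, bars the 95% interval, n = 3 mice per group), in mice given PBS (circles) and in mice given DEX (triangles), with filled symbols for called genes. Per3 lies at -6.60 and -5.25 and Npas2 at 5.03 and 7.98, and Nr1d1 is near 0 with PBS (0.33) and at 2.83 with DEX.

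The FeSO4/DEX and NaCl/DEX mice gave a second estimate of the FeSO4 effect that shares no library with the first, in mice that all received DEX. In it, 5 of the 10 genes were higher and 2 lower, where 22.4% of all genes were higher and 20.9% lower. The groups did not overlap in 6 of the 10 and in 55.9% of all genes. Per1, Cry2, Bmal1 and Npas2 were higher in both estimates and Per2 and Per3 lower in both. These are 40% and 20% of the clock genes, and 17.7% and 16.3% of all tested genes were higher in both and lower in both. Npas2 is counted here although it passed the low-count filter only through the FeSO4 mice.

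Per3 had 814.7, 406.2 and 529.6 normalized counts in NaCl/DEX mice and 19.33, 9.515 and 15.46 in FeSO4/DEX mice, an LFC of -5.25 (SE 0.42, edgeR FDR 5.2e-07). Bmal1 had 18.25, 34.79 and 23.16 against 528.7, 647 and 512.5, an LFC of 4.45 (SE 0.40, edgeR FDR 1.5e-06). For both genes the groups were far apart again. Npas2 had 0, 0 and 1 reads in the NaCl/DEX mice and 132, 104 and 67 in the FeSO4/DEX mice. The ratio of these reads was 347, with a 95% counting interval from 61.8 to 13700 that shows how little a single read in the NaCl/DEX mice can fix it.

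The other changes were smaller. Per1 rose from 735.3, 834.9 and 759.1 normalized counts to 1541, 1506 and 2071 (LFC 1.14, SE 0.17, edgeR FDR 0.00012). Per2 fell from 655.9, 306.5 and 386.6 to 178.8, 76.12 and 279.4 (LFC -1.32, SE 0.36, edgeR FDR 0.0081), and its LFC was -0.95, no longer called, without NaCl/DEX mouse 1. The Cry2 groups, 1525, 1174 and 1426 against 1514, 1986 and 2505, overlapped, and the LFC of 0.54 (SE 0.21, edgeR FDR 0.049) lost its call whenever a NaCl/DEX mouse was left out, without FeSO4/DEX mouse 2 or 3, and under DESeq2. It lay between 0.32 and 0.71 over the fits with 1 mouse left out. Cry1, Clock and Nr1d2 had LFCs of 0.43, 0.05 and -0.21 and were not called. Nr1d1, which had not been called in the PBS mice, was 7.10-fold higher in FeSO4/DEX than in NaCl/DEX mice (LFC 2.83, SE 0.36, edgeR FDR 2.6e-05).

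DEX alone acted on fewer clock genes, and most strongly on Nr1d1. In NaCl/DEX against NaCl/PBS mice, Nr1d1 and Per3 were lower and Cry2 was higher, so that 1 of 10 was higher and 2 were lower, where 6.50% of all genes were higher and 7.15% lower. The groups did not overlap for these 3 genes, and for 37.9% of all genes. The NaCl/PBS mice are the controls of this comparison and of the first FeSO4 comparison, so the LFCs of both share the chance values of these mice.

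Nr1d1 had 148.1, 411.8 and 271.8 normalized counts in NaCl/DEX mice, all far below the lowest NaCl/PBS mouse at 1058. Its LFC was -2.53 (SE 0.35, edgeR FDR 0.00026), a 5.77-fold fall within 2 h, and ran from -2.93 to -2.23 with each mouse left out in turn. By LFC it ranked 63 from the lowest of 13857 genes. Per3 fell with an LFC of -1.24 (SE 0.29, edgeR FDR 0.011), and this call was lost under DESeq2 (adjusted p = 0.10) and without NaCl/PBS mouse 1 or NaCl/DEX mouse 2 or 3 (LFC -1.08, -1.03 and -1.18). Cry2 rose with an LFC of 0.79 (SE 0.21, edgeR FDR 0.021), and its call was lost without NaCl/PBS mouse 2 or 3 or NaCl/DEX mouse 1 or 3, at LFCs of 0.75, 0.80, 0.71 and 0.77.

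The other members were not called. Per1, whose promoter is a textbook target of the glucocorticoid receptor, had an LFC of -0.02 (SE 0.17, edgeR FDR 0.96) and a 95% interval from -0.38 to 0.34. Bmal1 stayed low, with an LFC of -0.43 (SE 0.45, edgeR FDR 0.60), in the mice in which the transcript of its repressor Nr1d1 had fallen. A link between these values was not tested. The LFCs of Per2, Cry1, Clock and Nr1d2 were -0.55, -0.12, 0.39 and -0.21, and that of Per2 was called with no filter on low counts (LFC -0.54, edgeR FDR 0.0085). Npas2 had 6 reads in all 3 NaCl/PBS mice and 1 in the NaCl/DEX mice, too few for a direction.

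**Figure D3:**
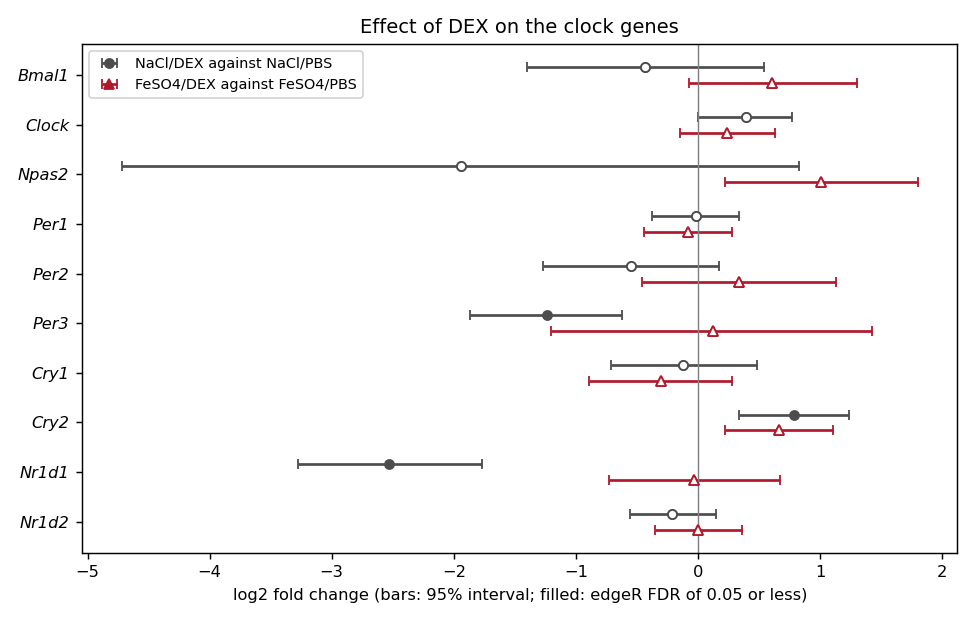
LFC of each clock gene between mice with and without DEX (horizontal axis, log2 scale, bars the 95% interval, n = 3 mice per group), in NaCl mice (circles) and FeSO4 mice (triangles), with filled symbols for called genes. Nr1d1 lies at -2.53 in NaCl mice and at -0.03 in FeSO4 mice, and no gene is called in FeSO4 mice.

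After FeSO4, DEX called none of the clock genes. The controls here were the FeSO4/PBS mice, in which 9 of the 10 glucocorticoid target genes were already higher than in NaCl/PBS mice and 1 was lower. In FeSO4/DEX against FeSO4/PBS mice 0 of 10 were called by edgeR in either direction, as were 0% of all genes higher and 0% lower, and DESeq2 also called 0 of the 10. At an unadjusted p under 0.05 there were 2 clock genes, Cry2 and Npas2, and 900 of all 13857 genes. The groups did not overlap for Clock, with 481.8 to 743.5 against 751.1 to 763.4 normalized counts, and for 9.30% of all genes. Cry2 had an LFC of 0.66 (SE 0.21, edgeR FDR 0.71), which was called at 0.65 when no filter on low counts was set. Npas2 reads numbered 155 and 303 in the 2 groups, a ratio of 2.07 (95% counting interval 1.70 to 2.52) that does not cover the spread between mice, since the groups overlapped. Nr1d1 had 1884, 2269 and 1775 normalized counts in FeSO4/DEX mice, within the range of the FeSO4/PBS mice, and an LFC of -0.03 (SE 0.33, edgeR FDR 0.99; 95% interval -0.73 to 0.67).

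Whether the DEX response differed with FeSO4 was tested as an interaction, the LFC by DEX in FeSO4 mice minus that in NaCl mice. Of the clock genes 1 was called higher and 0 lower, where 2.99% of all genes were called higher and 3.20% lower. The gene was Nr1d1, with a difference of 2.49 (SE 0.47, edgeR FDR 0.0068), from 2.18 to 2.89 with each mouse left out in turn. For Per3 the difference was 1.36 (SE 0.68, edgeR FDR 0.28), for Per2 0.89 (SE 0.50, edgeR FDR 0.35) and for Bmal1 1.04 (SE 0.55, edgeR FDR 0.31). Without FeSO4/PBS mouse 1 that of Per3 was 2.61 (edgeR FDR 0.039) and was called. With no filter on low counts all 3 were called, at 1.34 for Per3 (edgeR FDR 0.0035), 0.87 for Per2 (edgeR FDR 0.0057) and 1.02 for Bmal1 (edgeR FDR 0.015). Per3 had 13.56 ± 13.6 normalized counts in FeSO4 mice without DEX and 14.77 ± 4.94 with it (SD, n = 3). For Cry2 the 2 DEX responses differed by -0.13 (95% interval -0.76 to 0.50), so the data do not separate them.

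**Figure D4:**
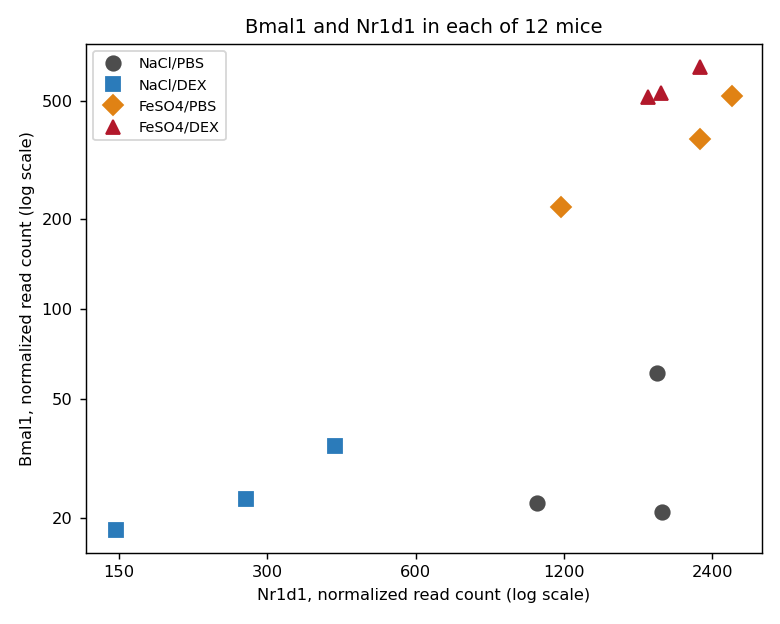
Normalized read counts of Nr1d1 (horizontal axis) and Bmal1 (vertical axis), both on log scales, in each of the 12 mice, with a symbol for each treatment group. The 6 FeSO4 mice lie at the upper right with both genes high, the NaCl/PBS mice at the lower right with Bmal1 between 20.86 and 60.94, and the NaCl/DEX mice at the lower left with both genes low.

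Bmal1 alone overlapped between NaCl/PBS and NaCl/DEX mice and between FeSO4/PBS and FeSO4/DEX mice. Set against its repressor in the same liver, it lay apart in the 4 groups. The log2 ratio of Bmal1 to Nr1d1 normalized counts was -6.51, -5.56 and -4.93 in NaCl/PBS mice and -3.02, -3.57 and -3.55 in NaCl/DEX mice. It was -2.43, -2.61 and -2.35 in FeSO4/PBS mice and -1.83, -1.81 and -1.79 in FeSO4/DEX mice. No 2 groups overlapped in this ratio. It rose in NaCl/DEX mice through Nr1d1, which was low, and in FeSO4 mice through Bmal1, which was high, so the groups reach their values by different genes. The ratio is given as a description, with no test and no share over other gene pairs. Ratios of Per1 to Per2 and of Per1 to Per3 were computed too, and both overlapped between FeSO4/PBS and FeSO4/DEX mice. Between NaCl/PBS and NaCl/DEX mice that of Per1 to Per2 overlapped and that of Per1 to Per3 did not.

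After FeSO4 without DEX, other regulators of the loops were called in shares near those of all genes, with large falls among them. Of 10 such genes 9 were tested and Rorb had no read in any library, and FeSO4 without DEX raised 3 of them and lowered 4, where 27.2% of all genes were higher and 27.3% lower. Without NaCl/PBS mouse 3, 1 was called higher. Their median LFC was -0.18. The 3 activators at D-boxes fell together. Dbp had 2914, 1966 and 2310 normalized counts in NaCl/PBS mice and 81.64, 70.19 and 75.24 in FeSO4/PBS mice (LFC -4.98, SE 0.34, edgeR FDR 8.9e-08). Tef and Hlf had LFCs of -2.16 and -1.63, and their groups did not overlap either. Nfil3, the repressor at the same sites, was higher, with 180.5, 585.4 and 195.5 against 915.2, 933.9 and 633.8 (LFC 1.38, SE 0.41, edgeR FDR 0.011), the highest of its controls being NaCl/PBS mouse 2. Per2 and Per3, the clock genes with a D-box in the searched window, were also those with the largest falls among the 10. These genes were chosen with earlier results known, and the match of sequence and direction was not tested.

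Among the E-box repressors, Bhlhe40 (LFC 1.26, edgeR FDR 9.6e-05) and Ciart (LFC 0.58, edgeR FDR 0.019) were higher after FeSO4. Rora, which encodes an activator of Bmal1 and Npas2, was not called (LFC -0.18). After DEX in NaCl mice 1 of the 9 tested was called higher and 4 lower, where 6.50% of all genes were higher and 7.15% lower. Ciart was higher (LFC 1.66), and Bhlhe40, Bhlhe41 and Dbp were among the lower (LFCs -1.12, -3.05 and -1.76). In FeSO4 mice DEX called 0 of the 9, and 1 higher with no filter on low counts. The interaction was called higher for 3 of the 9 and lower for 1, where 2.99% of all genes were higher and 3.20% lower. Among these were Bhlhe40, Dbp and Ciart, with differences of 1.5, 1.66 and -1.58. The DEX responses of Bhlhe40, Dbp and Ciart in FeSO4 mice were small, with LFCs of 0.37, -0.1 and 0.08. As with Nr1d1, the sign of each difference, opposite to the NaCl response, then follows from subtracting that response. It is no further result.

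**Figure D5:**
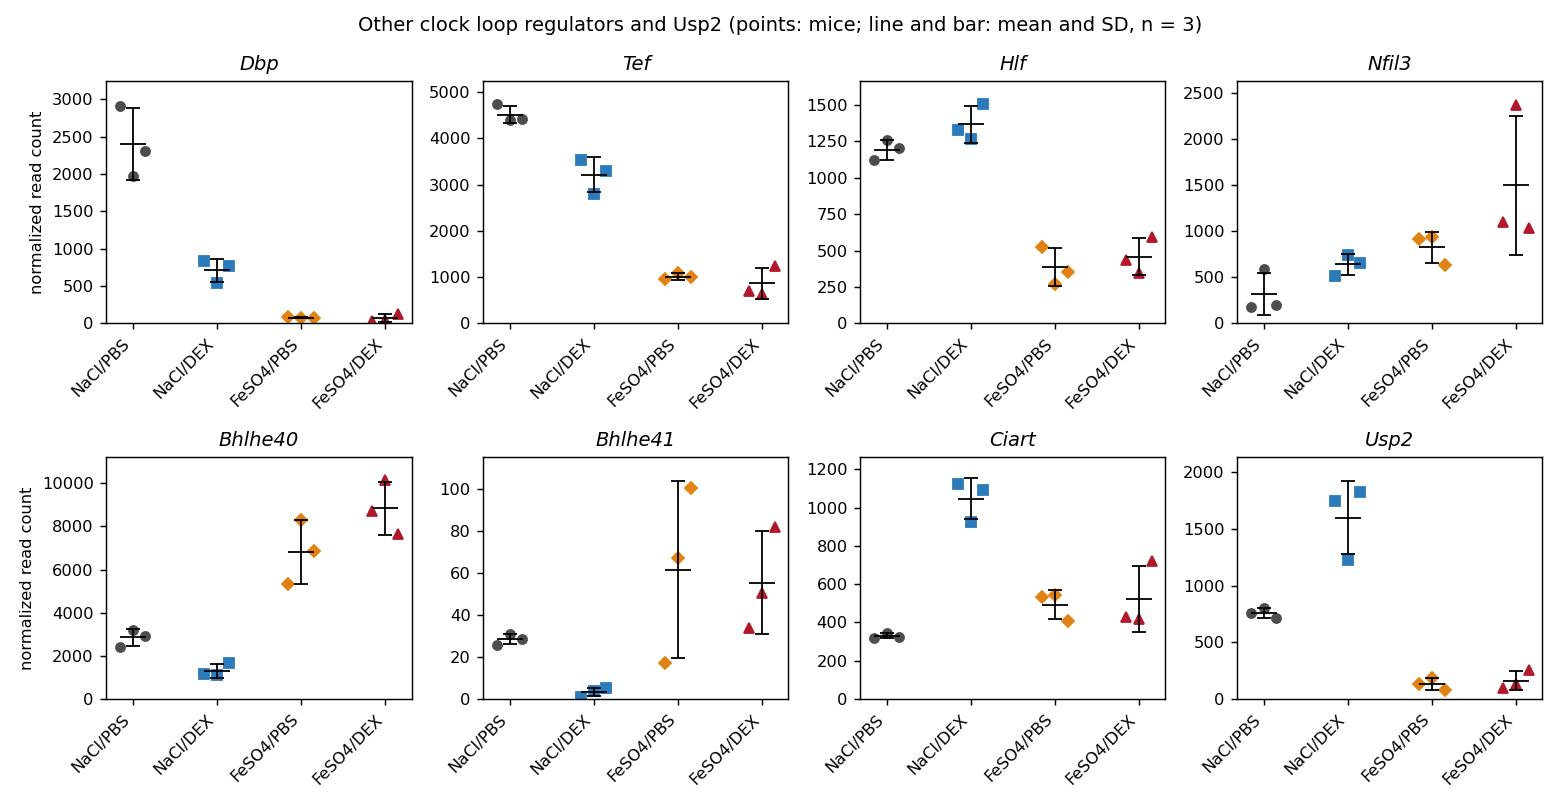
Normalized read counts (vertical axes, linear from 0) of 7 further loop regulators and of Usp2 in the 4 groups, with a point for each mouse and the mean and SD of 3 mice in black. Dbp, Tef, Hlf and Usp2 lie below all NaCl mice in the 6 FeSO4 mice, and Ciart and Usp2 are highest in the NaCl/DEX mice.

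Genes for the enzymes that modify clock proteins were read out in the same fits. Of 9 genes for kinases and for the ubiquitin pathway, all tested, 5 were higher after FeSO4 and 3 lower, where 27.2% of all genes were higher and 27.3% lower. The 5 became 3 with library size as the only scaling or without NaCl/PBS mouse 2, and 0 of them had an LFC beyond 1. The kinase genes Csnk1d, Csnk1e, Csnk2a1 and Gsk3b, whose products phosphorylate PER, CRY, BMAL1 or NR1D1, had LFCs of 0.64, 0.95, 0.40 and 0.90. Fbxl21, which encodes a ligase subunit for CRY proteins, and Btrc, which encodes one for PER proteins, had LFCs of -1.91 and -0.84. Fbxl21 had few reads, 43, 22 and 33 in NaCl/PBS mice and 5, 6 and 8 in FeSO4/PBS mice. In FeSO4/DEX against NaCl/DEX mice Fbxl21 was not called (LFC -0.09) and Btrc was lower again (LFC -0.69). Usp2, a deubiquitinase of clock proteins and itself a clock-controlled gene, had 753.8, 801.4 and 715.2 normalized counts in NaCl/PBS mice and 132, 183.1 and 81.62 in FeSO4/PBS mice (LFC -2.50, SE 0.31, edgeR FDR 1.5e-05). DEX in NaCl mice raised Usp2 (LFC 1.08, edgeR FDR 0.020) and Csnk1d (LFC 0.45, edgeR FDR 0.015), and in FeSO4 mice called 0 of the 9. Of the calls of Usp2 and Csnk1d, 1 was left with library size as the only scaling and when any NaCl/PBS mouse or NaCl/DEX mouse 2 or 3 was left out, and 0 without NaCl/DEX mouse 1.

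The genes whose log2 levels over the 12 libraries were most like those of 4 members were listed by Pearson's r, as a description. For Per1 they were Cerk, Slc25a44 and Upk1a (r from 0.972 to 0.978), and for Per3 Nat8f2, Dguok and Irf3 (0.989 to 0.992). For Bmal1 they were Asap2, Kmt2b and Gsk3b (0.984 to 0.991), the last a kinase gene of the list above. For Nr1d1 they were Plk2, Foxk1 and Id4 (0.96 to 0.975). The 12 mice fall into treatment groups, so these values rest largely on the differences between groups.

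The mice of a group also differed from each other in the clock genes. The median SD of log2 levels within a group was 0.27, 0.39, 0.40 and 0.24 for the clock genes in NaCl/PBS, NaCl/DEX, FeSO4/PBS and FeSO4/DEX mice, and 0.16, 0.18, 0.27 and 0.20 for all tested genes. Bmal1 varied most in the NaCl/PBS mice, with an SD of 0.82, and Per3 in the FeSO4/PBS mice, with 1.17.

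The cell markers moved with FeSO4 too. All 8 Kupffer cell markers were lower in FeSO4/PBS mice, with a summed level of 4670 to 5430 normalized counts against 8650 to 9910 in NaCl/PBS mice. The 6 neutrophil markers that could be tested were all higher, with sums of 729 to 899 against 56.7 to 190. Of the 7 hepatocyte markers 4 were higher and 0 lower. Stellate cell markers were higher in 3 cases of 8 and lower in 1, sinusoidal endothelial markers higher in 2 of 8 and lower in 4, lymphocyte markers lower in 2 of 7, and of the acinar markers 0 were called. After DEX in NaCl mice, 2 of the 7 hepatocyte markers were higher, 1 endothelial marker was higher and 1 lower, 1 stellate marker was lower, and 0 of the Kupffer, neutrophil, lymphocyte and acinar markers were called. In whole liver, fewer cells of a type and less RNA per cell cannot be told apart, and the part of the cell mixture in the clock gene changes was not tested.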

How the data were processed

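Livers of 12 mice in 4 groups of 3 were profiled by stranded, single-end mRNA sequencing. After quality control in FastQC, the authors used STAR 2.7.10b and the mm39 build for mapping and deposited raw counts per Ensembl gene. Symbols came from GENCODE vM39 for 54749 of 55414 genes. Of these, 30401 were at 0 in every library. Opposite-strand reads may be shared where genes overlap.

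All 12 libraries entered 1 model in R 4.3.3 with edgeR 4.0.16 (low-count filter, TMM, a mean per group, two-sided quasi-likelihood test). P-values were adjusted by Benjamini-Hochberg over 13857 genes. SEs were derived from the F statistic. The 5 contrasts were those reported above. Replicate pairs differed far beyond sampling noise (chi-square per gene 18.3 to 89.5), and each library counted as 1 mouse. For 1 gene, 3 mice against 3 cannot go below an exact permutation p of 0.1. On simulated counts, 189 of 200 genes changed by an LFC of 2 in FeSO4/PBS against NaCl/PBS were recovered among 13251, with 13 false calls. The changed genes left out those with few reads and were far fewer than the genes called in the data, so these rates need not hold there. Whether separate animals shared a litter or cage is not stated.

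All 10 members are named, as are the called genes of the 2 further clock lists, Fkbp5, Tsc22d3 and the 3 genes most like Per1, Per3, Bmal1 and Nr1d1. The members, lists and tests were chosen with earlier results of these data known. Alternatives were DESeq2 1.42.0, its size factors, library size alone, no filter, at least 10 counts in every library, a minimum LFC of 1, the libraries of a comparison alone, the replicate number as a block, and each mouse left out. Of the 2 further lists, 2 genes are counted with their lists and otherwise not reported here. Columns of other samples numbered 0.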

Additional observations from a re-analysis of the deposited data

Results flagged for a closer look

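The response of Nr1d1 to DEX differed between FeSO4 and NaCl mice by 2.49 on the log2 scale (SE 0.47, edgeR FDR 0.0068), by a test of the difference itself. Nr1d1 fell after DEX in all 3 NaCl/DEX mice, to between 148.1 and 411.8 normalized counts, while the FeSO4/DEX mice had 1775 to 2269 and the FeSO4/PBS mice 1183 to 2625.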

How the results depend on the processing

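Over 689 alternative values of the clock genes' LFCs, 614 kept their direction and their side of the threshold, 29 lost a call, 9 gained one and 37 changed sign. The iron calls of Per1, Per3, Bmal1 and Npas2 and the Nr1d1 calls held wherever they could be tested. Npas2 passed the low-count filter only through the FeSO4 mice, so that its iron calls held is no separate support. With at least 10 counts in every library Per3 and Npas2 left the fit and Cry2 lost its call in the second estimate of the FeSO4 effect, so that FeSO4/DEX against NaCl/DEX had 3 genes higher and 1 lower and NaCl/DEX against NaCl/PBS had 1 lower. The latter was also 1 under DESeq2, 1 to 2 with a mouse left out, and 3 without a filter, where Per2 was called. Its higher count was 0 with a minimum LFC of 1, and 0 to 1 with a mouse left out. Without a filter, DEX in FeSO4 mice called 1 gene higher (Cry2) and the interaction 4 (Nr1d1, Per2, Per3 and Bmal1). With a mouse left out, the interaction had 1 to 2 genes higher and FeSO4/DEX against NaCl/DEX 1 to 2 lower. The replicate numbers did not pair the mice, since the 18 same-number pairs between groups had correlations from -0.09 to 0.13, with 2 above 0.1. With the replicate block, the calls of Nr1d2 after FeSO4 (LFC -0.43, edgeR FDR 0.056) and of Cry2 in FeSO4/DEX against NaCl/DEX (0.53, edgeR FDR 0.074) were lost.

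All sign changes were in differences that no fit called, and the cause was not tested. With library size alone, Clock was at -0.12 after FeSO4 and at -0.15 in FeSO4/DEX against NaCl/DEX, the interaction of Per1 was 0.06 and Nr1d2 after DEX in FeSO4 mice was -0.03. The latter was -0.01 under DESeq2, -0.02 with its size factors, -0.01 without a filter and 0 with the libraries of the comparison alone. Per1 after DEX in NaCl mice was 0.01 under DESeq2, 0.01 with its size factors and 0 with those libraries alone. Nr1d1 after DEX in FeSO4 mice was 0.02 with the replicate block. With a mouse left out, LFCs after DEX in NaCl mice ran from -0.09 to 0.16 for Per1, from -0.38 to 0.22 for Cry1 and from -0.73 to 0.25 for Bmal1. After DEX in FeSO4 mice they ran from -0.25 to 0.07 for Per1, -0.13 to 0.67 for Per2, -0.31 to 1.39 for Per3, -0.33 to 0.19 for Nr1d1 and -0.18 to 0.19 for Nr1d2. Clock in FeSO4/DEX against NaCl/DEX ran from -0.07 to 0.20. Interactions ran from -0.26 to 0.08 for Per1, -0.52 to 0.07 for Cry1, -0.36 to 0.14 for Cry2 and -0.36 to 0.01 for Clock. At 3 mice per group the number of mice limits the precision more than depth, except where reads are few. This holds for Npas2 in NaCl mice and for Per3 in FeSO4 mice.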
